A study of Mus musculus with 37 samples.

Results

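The 5 sham mice of the series (a8_15, a8_16, a9_9, a9_10 and a9_11) were operated without an impact. Each gave 1 library of hippocampal astrocytes from the side of the craniectomy (ipsilateral) and 1 from the opposite side (contralateral). The libraries were chosen by the sham label and paired by the mouse name, which gave 10 of the 37 libraries and 5 of the 20 mice of the series. The other mice received a controlled cortical impact (CCI), a contusion made by a piston, and were labelled by whether post-traumatic epilepsy developed (PTE+) or did not (PTE-). Per the study's methods, sham mice were male CD1 mice, an outbred stock, that received ketamine, xylazine and buprenorphine, a craniectomy and, later, electrodes, which the injured mice received too. The labels call the genotype WT CD31 and give the time as 4 months post injury. The levels below are therefore those of operated and implanted mice. The paper describes a recording electrode on each side, so the contralateral side was implanted too. The contralateral and ipsilateral libraries were deposited in separate tables, so the side and the table cannot be told apart.

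Astrocytes clear glutamate and potassium from the space around synapses, pass lactate and cholesterol-bearing lipoproteins to neurons and line blood vessels with their endfeet. The hippocampus includes the dentate gyrus, where radial astrocyte-like stem cells keep producing granule neurons. After injury astrocytes become reactive, with more GFAP and vimentin filaments and, in some states, genes of the interferon response and antigen presentation. Here they were pulled out of the dissociated tissue on magnetic beads that bind ACSA-2, an astrocyte surface antigen, so RNA of other cells that came along is counted too. In such bulk samples, fewer cells of a type and less RNA per cell cannot be told apart.

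The 10 sham libraries held 32949191 to 59846479 counts (median 48658882), and the ipsilateral library was the deeper one in 4 of 5 mice (two-sided exact sign-flip permutation over mice, p = 0.125). A pair of libraries, 1 on each side, stood apart from the rest. The contralateral library of mouse a8_16 had counts for 12122 genes and the ipsilateral library of mouse a9_9 for 10886, against 14026 to 15545 in the other 8. Of the genes whose median over the 10 libraries was above 1000 counts, 6.34% and 11.6% had 3 or fewer counts in these libraries, compared with at most 0.201% elsewhere. Their depth was 50367612 and 59846479 counts, above the median of the 10 libraries. Some of the results are also given without their mice, a choice made after the data were seen. The CVs and intraclass correlations below are given over all 10 libraries only.

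**Figure D1:**
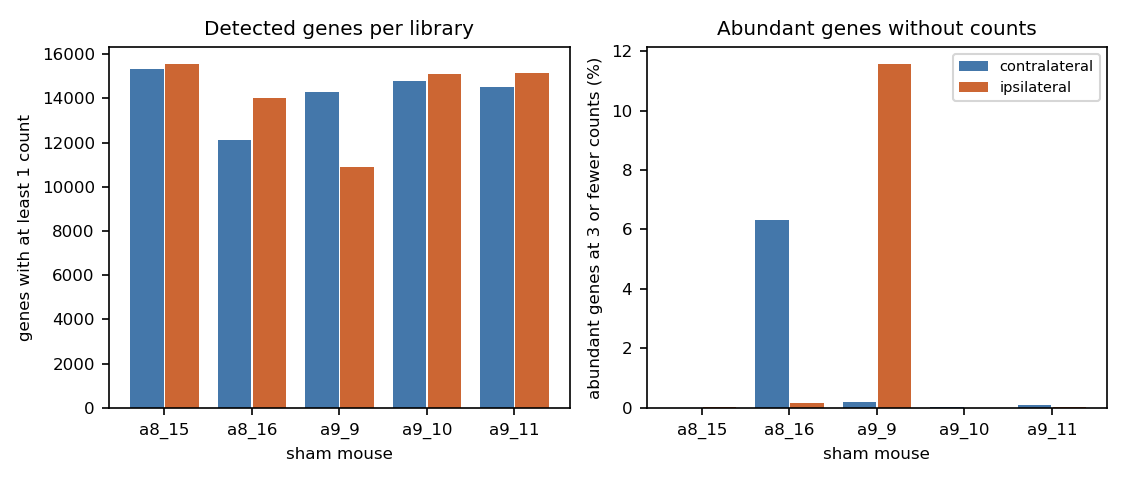
Genes with at least 1 count (left) and the percentage of abundant genes (median above 1000 counts) with 3 or fewer counts (right), for the contralateral (blue) and ipsilateral (orange) library of each sham mouse. The contralateral library of a8_16 and the ipsilateral library of a9_9 have the fewest detected genes and are the only bars above 1% on the right.

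The baseline profile of sham hippocampal astrocytes was dominated by Apoe, which encodes the main lipoprotein carrier of brain cholesterol (ENSMUSG00000002985, GRCm38 chromosome 7). Apoe reached 75215, 62418, 49062, 59179.8 and 57988 TPM (a transcript level scaled by gene length and library) on the contralateral side of a8_15, a8_16, a9_9, a9_10 and a9_11, the order used throughout. On the ipsilateral side it reached 88534, 73353, 62541, 56435 and 63213 TPM. It was the highest gene in each of the 10 libraries, and its 64794 ± 10589.8 TPM (mean and SD over 5 mice, both sides averaged) was 6.48% of all transcripts. The 10 highest genes held 15.9%, the 25 highest 22.5% and the 200 highest 41.7%. In all, 92 genes had a mean above 1000 TPM, 1729 above 100 TPM and 10632 above 5 TPM.

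The rest of the 25 highest genes are given by function, not by rank. Of the secreted proteins, Cst3, the cysteine protease inhibitor cystatin C, stood at 26355 ± 6887 TPM and was highest in a8_16 on both sides, with 26256, 41035, 24204, 21522 and 22970.5 TPM contralaterally and 28524, 33932, 26399, 18107 and 20597 TPM ipsilaterally. Clu, a secreted chaperone found on lipoproteins, stood at 11137 ± 1078 TPM. Mfge8, which bridges dying cells to phagocytes, followed at 6019 ± 1534 TPM, Cpe, a carboxypeptidase of the secretory pathway, at 5538 ± 1398 TPM, and Sparcl1, a matricellular protein that promotes synapse formation, at 4271 ± 947 TPM. Of the enzymes of energy metabolism, Aldoc, the aldolase of astrocytes, stood at 10335 ± 2350.1 TPM, Ckb, a creatine kinase, at 10122 ± 1148 TPM and Gapdh at 4377 ± 439.6 TPM. Genes of metal and redox handling were also among the 25: the metallothionein Mt1 (7870.2 ± 2056 TPM), the glutathione transferase Gstm1 (5772 ± 1483 TPM), the peroxiredoxin Prdx6 (4645 ± 839 TPM) and the ferritin subunit Fth1 (3722 ± 1293 TPM). The membrane proteins of the 25 were the neurotensin receptor Ntsr2 (4964 ± 1085 TPM), the astrocyte receptor Gpr37l1 (4431 ± 869 TPM) and the tetraspanins Cd81 (4059.96 ± 631 TPM) and Tspan7 (3971 ± 727 TPM). The ubiquitin gene Ubb (3671 ± 405 TPM) and 7 genes of the mitochondrial genome completed them, the latter from mt-Atp6 (8655 ± 3427 TPM) to mt-Nd1 (3620.2 ± 1558 TPM).

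**Figure D2:**
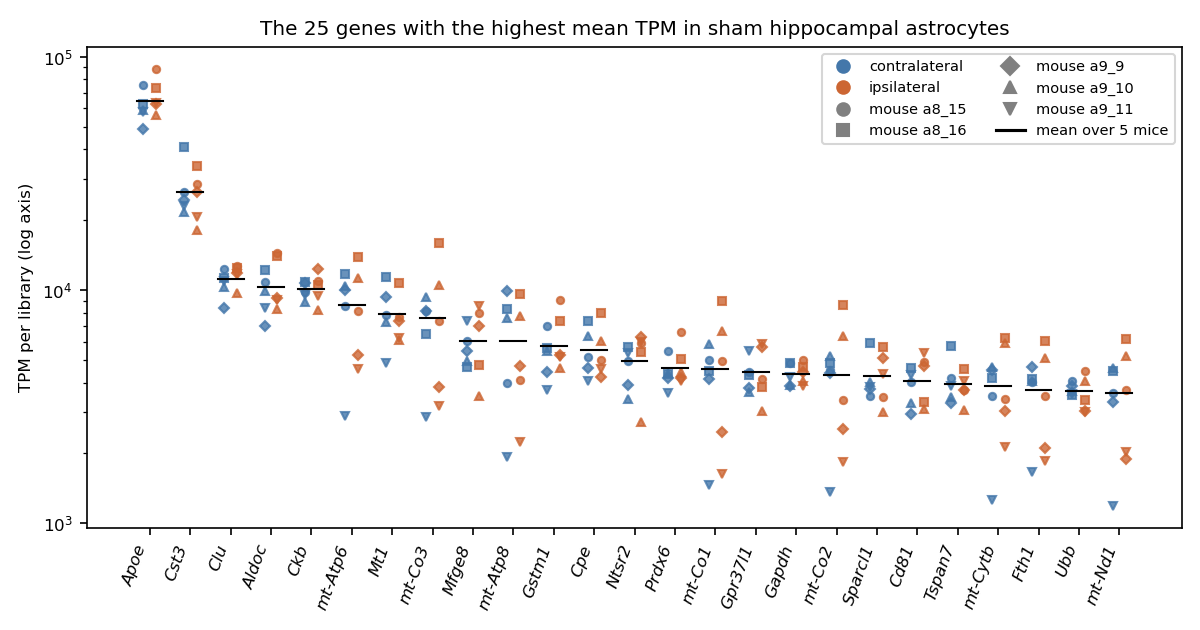
TPM of the 25 genes with the highest mean in sham astrocytes, on a log axis, 1 point per library (blue contralateral, orange ipsilateral, marker shape by mouse) and a black line at the mean over 5 mice. Apoe lies above every other gene in each library, and Fth1 and 6 of the 7 mitochondrial genes are lowest in mouse a9_11 on both sides (mt-Nd1 only contralaterally).

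The transport and metabolic functions of astrocytes were represented among the abundant genes. Of the glutamate and GABA genes, the glutamate transporter Slc1a3 (GLAST) stood at 2535 ± 644 TPM, glutamine synthetase (Glul) at 1813 ± 197 TPM and the glutamate transporter Slc1a2 (GLT-1) at 619 ± 168 TPM. All 12 members of that list exceeded 5 TPM on average. Of the genes for potassium, water and gap junctions, the connexin Gja1 stood at 2086 ± 744 TPM, the endfoot protein Mlc1 at 1096 ± 59 TPM and the water channel Aqp4 at 663 ± 58.5 TPM. The lipid and lipoprotein list held 9.26% of all transcripts, the secreted and matrix proteins 5.74% and glycolysis and glycogen 2.77%. Among transcription factors, Hopx (759 ± 305 TPM) and Id3 (703 ± 197 TPM) were highest, followed by the Notch target Hes5 (574 ± 154 TPM).

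Of the pan-reactive astrocyte genes, those of the filament proteins GFAP and vimentin were highest. Gfap had 409, 466, 289, 563 and 254 TPM contralaterally and 212, 708, 282, 723 and 224 TPM ipsilaterally. Vim had 176, 192, 384, 180.4 and 66.9 TPM contralaterally and 80.4, 131, 171, 389.8 and 65.1 TPM ipsilaterally. The sides overlapped for both genes, and mouse a9_11 was the lowest for Vim on both sides. Serpina3n, an acute-phase protease inhibitor, stood at 54.9 ± 19 TPM. Lcn2, a secreted iron-siderophore binder that rises strongly in reactive astrocytes, was above 3 counts in 1 of 10 libraries, and Timp1, a metalloproteinase inhibitor, in none, which allows up to 3 counts per library (a limit for counting error only). The dentate neurogenic lineage held 29.2 to 202 TPM in sum contralaterally and 36.9 to 149 TPM ipsilaterally, with the neuronal tubulin Tubb3 and the calretinin gene Calb2 highest.

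The label of astrocytes was checked against marker genes. All 12 astrocyte markers were above 3 counts in all 10 libraries, and their sum was 15068 to 22352 TPM contralaterally and 14565 to 22564 TPM ipsilaterally. RNA of other cells was present too. The microglial markers summed to 179 to 1037 TPM contralaterally and 134 to 1576 TPM ipsilaterally, with 6 of 12 above 3 counts in every library. The oligodendrocyte markers summed to 269 to 1624 and 387 to 2164 TPM, and their precursors' markers to 361 to 847 and 339.8 to 803 TPM. Neuronal markers summed to 139 to 774 TPM contralaterally and 102 to 605 TPM ipsilaterally. Markers of vessels summed to 544 to 1714 and 371 to 1050.2 TPM for endothelial markers and 1468 to 2781 and 996 to 3894 TPM for mural cells and fibroblasts. Markers of ependyma and choroid plexus summed to 490.1 to 1915 and 423 to 2701 TPM. Leukocyte markers other than those of microglia summed to at most 49.5 TPM in any library, with the monocyte receptor gene Ccr2 at 3 or fewer counts in 9 of 10 libraries and the T cell gene Cd3e in 7. The 5 red blood cell genes ranged widely, from 104 to 4041 TPM contralaterally and from 943 to 7629 TPM ipsilaterally.

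The spread of these levels was described by the coefficient of variation (CV, the SD over the 10 libraries as a percentage of the mean). Its median was 24.2% over the 200 genes with the highest TPM and 52.2% over the 10632 genes above 5 TPM. The steadiest of the 200 was Mlc1, which is mutated in a childhood leukodystrophy and sits in astrocyte endfeet (CV 6.05%). Mlc1 had 1113, 1153, 1046, 1088 and 1079 TPM contralaterally and 989, 1226, 1042, 1138 and 1086 TPM ipsilaterally. Then came the G protein subunit Gnai2 (8.61%), the nucleic acid binding protein Cnbp (8.87%), the ATP synthase subunit Atp5b (9.33%) and the tetraspanin Tspan3 (9.82%). The most variable were the class I antigen-presenting gene H2-D1 (82.2%), the haemoglobin genes Hba-a2 (78.4%), Hba-a1 (76.5%) and Hbb-bs (71.9%), and the prostaglandin D synthase gene Ptgds (77.5%). Haemoglobin genes are near-identical copies, so reads may have been divided between them.

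Part of this spread lay between mice and was shared by both sides of a mouse. The intraclass correlation on log2(TPM + 1), which is 1 where both sides of each mouse are equal and the mice differ, had a median of 0.594 over the 200 highest genes and of 0.164 over all genes above 5 TPM. It exceeded 0.5 for 125 of the 200 (62.5%) and for 2418 of all those genes (22.7%). Genes that were above 5 TPM on one side of a mouse and at 3 or fewer counts on the other numbered 3990, and 588 when only a8_15, a9_10 and a9_11 were counted. Only 30 genes were above 5 TPM on both sides of some mice and at 3 or fewer counts on both sides of all the others, and Fos had the highest level among them.

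The immediate early genes, which cells switch on within minutes of a stimulus, differed between mice on both sides alike (Fos, Junb, Dusp1 and the next genes were picked after their values were seen). Fos, a subunit of the AP-1 transcription factor, had 1118, 339.6, 0, 26 and 669 TPM contralaterally and 946, 788, 0, 22.1 and 1141 TPM ipsilaterally. It was listed at 0 on both sides of a9_9, and the next lowest values were those of both sides of a9_10. Junb, another AP-1 subunit, had 592, 396, 37.4, 90 and 292 TPM contralaterally and 429, 368, 62.9, 51.1 and 527 TPM ipsilaterally. Dusp1, a phosphatase that ends MAP kinase signalling, had 549, 173, 54.4, 137 and 469.6 TPM contralaterally and 454, 449.8, 60.3, 67.5 and 517 TPM ipsilaterally. Egr1, a zinc finger transcription factor, had 185, 67.6, 7.67, 6.22 and 215 TPM contralaterally and 111, 115, 0, 7.71 and 244 TPM ipsilaterally. The 4 lowest libraries for each of these genes were both sides of a9_9 and of a9_10. The intraclass correlation was 0.99 for Fos, 0.92 for Junb, 0.86 for Dusp1 and 0.87 for Egr1, and its median was 0.75 over the 18 members of the immediate early and heat shock list above 5 TPM. The contralateral library of a9_9 had 14302 detected genes and the ipsilateral one 10886. The parts of lost genes and of the name prefix (a8 or a9, meaning not given) in these levels were not tested.

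The 150 bases before the RefSeq start of Fos (chr12:85473740-85473889, plus strand), Junb (chr8:84978749-84978898, minus strand) and Dusp1 (chr17:26508473-26508622, minus strand, build GRCm38.p6) are shown because these genes were lowest in the same mice. They are written 5′ to 3′ in the direction of the gene, and capitals mark TATAAA (the TATA box) and TGACG on either strand (the core of the cAMP response element).
Fos: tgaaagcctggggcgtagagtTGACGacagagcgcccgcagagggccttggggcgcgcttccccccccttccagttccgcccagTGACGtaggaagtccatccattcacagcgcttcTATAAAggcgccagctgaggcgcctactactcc
Junb: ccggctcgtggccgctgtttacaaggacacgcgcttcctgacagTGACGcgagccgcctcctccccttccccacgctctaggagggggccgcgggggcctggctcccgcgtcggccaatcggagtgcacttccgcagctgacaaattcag
Dusp1: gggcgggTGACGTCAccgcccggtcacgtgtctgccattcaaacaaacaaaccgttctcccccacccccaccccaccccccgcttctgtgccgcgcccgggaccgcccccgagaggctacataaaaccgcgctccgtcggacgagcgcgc
In Fos, TGACG begins 129 and 66 bases and TATAAA 33 bases before the start. In Junb, TGACG begins 106 bases before the start, and in Dusp1 the motif occurs on both strands and overlaps itself, 143 and 140 bases before the start. Of all 32851 RefSeq promoter windows of this length, 13.3% held TGACG and 7.57% TATAAA. Counted by gene, where a gene can have several windows, 15.02% of all 27025 genes with a window held TGACG and 8.89% TATAAA. Of the 152 genes with a window among the 200 highest in TPM, also counted by gene, 25.7% held TGACG and 9.87% TATAAA. A match of letters is no evidence of binding.

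A second pattern by mouse concerned antigen presentation and interferon-stimulated genes, again noticed after the values were seen. H2-D1 had 529, 309.96, 308, 1253 and 256 TPM contralaterally and 403, 424, 446, 1664 and 242 TPM ipsilaterally. B2m, the light chain of class I molecules, had 340, 484, 286, 739 and 239.8 TPM contralaterally and 280.4, 334, 264, 791 and 242 TPM ipsilaterally. Mouse a9_10 was highest on both sides for both genes, and for the antiviral membrane protein gene Ifitm3, which had 473, 134, 319, 587 and 206 TPM contralaterally and 275, 240.4, 244, 968 and 215 TPM ipsilaterally. The 22 interferon-stimulated genes summed to 1866 and 2575 TPM in a9_10 and to between 604 and 1043 TPM in the other 8 libraries. The microglial markers were also highest in a9_10 on both sides (1037 and 1576 TPM), as were the oligodendrocyte markers (1624 and 2164 TPM) and the red blood cell genes (4041 and 7629 TPM). The part of these cells in the levels of H2-D1 and B2m was not tested.

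Mouse a9_11 differed in its mitochondrial transcripts, which made up 1.48% of TPM contralaterally and 2.01% ipsilaterally, against 2.78% to 7.95% in the other 8 libraries. The cytochrome oxidase gene mt-Co1 had 5024, 4507, 4139, 5846 and 1453 TPM contralaterally and 4937, 8945, 2464, 6654 and 1631 TPM ipsilaterally. The same mouse was lowest for Fth1 on both sides, with 1652 and 1852 TPM, and highest for Ptgds, with 2202 and 1587 TPM. Its microglial marker sum was the lowest on both sides (179 and 134 TPM), as was its endothelial sum (544 and 371 TPM). Its mural cell and fibroblast sum was the highest (2781 and 3894 TPM), most of it from the vitronectin gene Vtn (2328 and 3381 TPM), while the mural gene Acta2 was lowest in this mouse (26.5 and 11.7 TPM). The part of these cells was not tested.

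**Figure D3:**
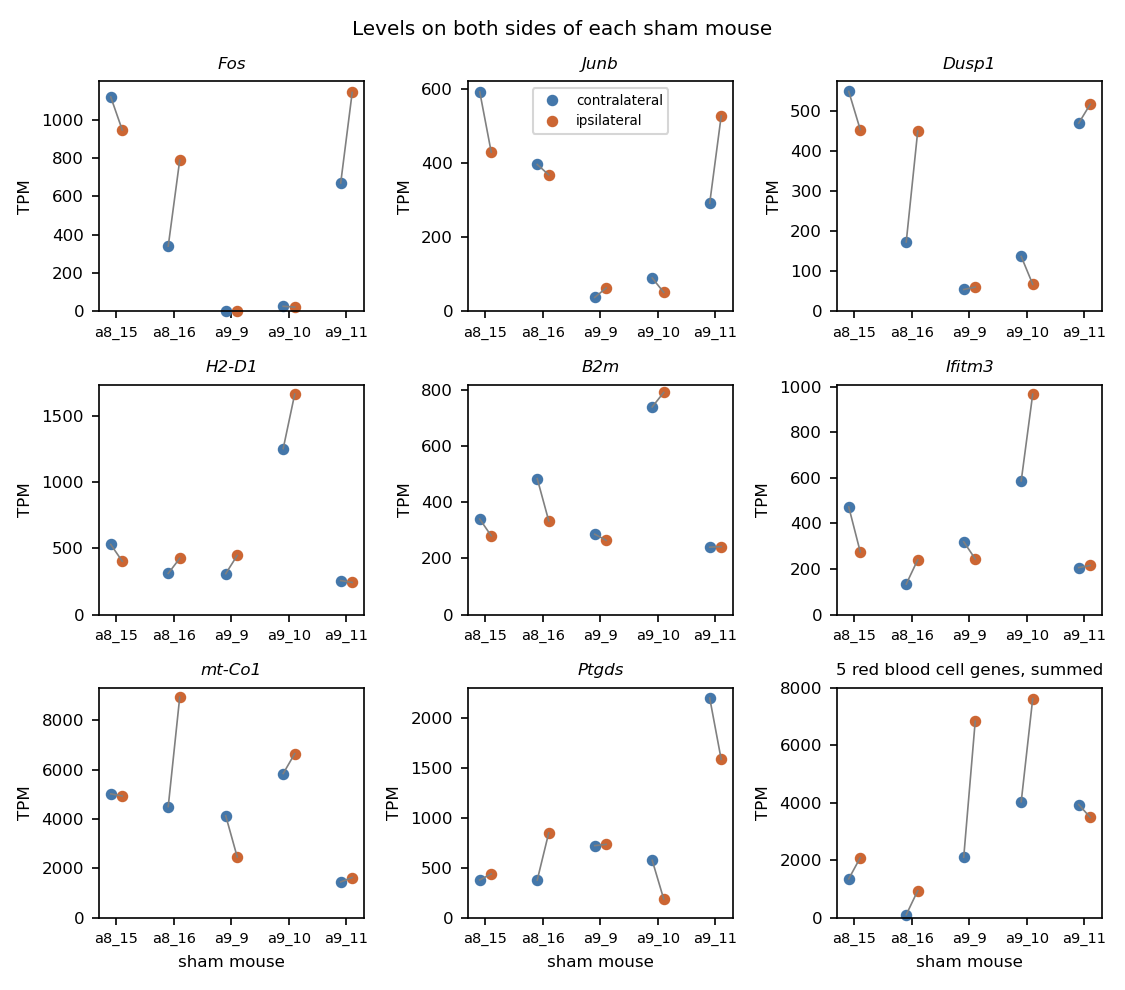
TPM of 8 genes and the summed TPM of 5 red blood cell genes in the contralateral (blue) and ipsilateral (orange) library of each sham mouse, with a grey line joining both sides. Fos, Junb and Dusp1 are low on both sides of a9_9 and a9_10, H2-D1, B2m and Ifitm3 are highest on both sides of a9_10, and mt-Co1 is lowest on both sides of a9_11.

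The comparison of the ipsilateral with the contralateral hippocampus within the same mouse asks how far the side of the craniectomy differs without an impact. Both sides carried an electrode. No gene passed: of 13711 genes tested, 0 (0%) had an adjusted p under 0.05 in edgeR's quasi-likelihood test with the mouse as a block and Benjamini-Hochberg adjustment. At an unadjusted p under 0.05 stood 97 genes (0.707%), 74 higher (0.54%) and 23 lower (0.168%) ipsilaterally. Chance alone gives about 1 in 20 at this threshold, so the fit was conservative and few calls are no evidence of equal sides. EdgeR's common biological coefficient of variation, which estimates the spread beyond counting error, was 1.13. Without a8_16 and a9_9 it was 0.693. DESeq2 called 16 genes at an adjusted p under 0.05 and had 524 at an unadjusted p under 0.05. Of the 16, 14 had 3 or fewer counts in the contralateral library of a8_16 or the ipsilateral one of a9_9. Over all 10 libraries, 15 of the 16 had 3 or fewer counts in at least 1, beside 42.0% of all genes tested. The part of such low counts in these calls was not tested. Limma voom with quality weights called 0 and had 476. The criteria of the study's methods (unadjusted p under 0.05, at least 1.2-fold, mean TPM above 5 on at least 1 side) were met in the edgeR fit by 81 genes (0.591%), 65 higher (0.474%) and 16 lower (0.117%). The split between higher and lower differed between settings. Higher genes were 76.3% of those with an unadjusted p under 0.05 with TMM and 65.8% with RLE in edgeR, and 52.9% with DESeq2. They were 36.1% with limma on log2(TPM + 1), which changes the test as well as the scaling, 21.2% with a covariate for how many genes each library detected and 53.6% without a9_9. Without a8_16 and a9_9, 0 of 14343 genes passed the adjusted threshold, 317 (2.21%) had an unadjusted p under 0.05, 276 met the criteria and 20 of these were among the 81.

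The precision of this comparison differed with abundance. The median SE of the log2 difference was 1.02 over all genes tested and 0.161 over the 200 highest. For 191 of these 200 genes (95.5%) the 95% interval of the difference lay within 2-fold in either direction, and for 132 within 1.5-fold. Over all genes tested this held for 2284 (16.7%) within 2-fold. Among the 25 highest genes, 20 had a fitted value above 0 and none an unadjusted p under 0.05. Of the 200 highest, 141 had a fitted value above 0 and 6 an unadjusted p under 0.05, beside 47.7% and 0.707% of all genes tested. The fitted differences of the 25 ran from -0.73 for mt-Atp8 to 0.32 for Gstm1 on the log2 scale. The median over all genes tested was -0.03. Apoe differed by 0.23 ± 0.13 (SE), with a 95% interval of -0.08 to 0.54 and 4 of 5 mice higher ipsilaterally. Aldoc differed by 0.28 ± 0.15 (SE, interval -0.08 to 0.64), Clu by 0.24 ± 0.12 (SE, interval -0.05 to 0.52) and Cst3 by -0.08 ± 0.14 (SE, interval -0.42 to 0.26). These values are differences on the log2 scale, ipsilateral minus contralateral, and each interval includes 0.

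The astrocyte genes most often followed after injury gave no call either. Gfap differed by 0.08 ± 0.21 (SE) with an interval of -0.42 to 0.59. Vim differed by -0.23 ± 0.33 (SE) with a wider interval of -1.03 to 0.56. The water channel gene Aqp4 differed by 0.34 ± 0.17 (SE, interval -0.06 to 0.74) and by 0.06 without a8_16 and a9_9. Of the glutamate genes, Slc1a2 differed by 0.13 ± 0.16 (SE, interval -0.26 to 0.51), Slc1a3 by 0.04 ± 0.20 (SE, interval -0.44 to 0.52) and Glul by 0.16 ± 0.17 (SE, interval -0.24 to 0.56). Gja1 differed by 0.01 ± 0.20 (SE, interval -0.47 to 0.49). All had an adjusted p of 1 in edgeR's test.

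Among the 81 genes that met the criteria, 60 differed the same way in all 5 mice, 47 higher and 13 lower ipsilaterally. Over all genes tested, 365 (2.66%) were higher and 352 (2.57%) lower in all 5. The 81 were chosen by a small paired p in these same mice, which favours 1 direction in all 5. The 60 are therefore no separate evidence of a side difference. The 8 of each direction with the smallest p are described next. None has an adjusted p below 1 in edgeR's test (DESeq2 called Rasd1 and Cnp), and with 5 pairs the exact sign-flip test cannot give a two-sided p below 0.0625, the value each of them had. Values are CPM (counts scaled to the library size with TMM factors, not by length), and for each of the 16 genes the contralateral and ipsilateral libraries overlapped when the pairing was set aside. In TPM, 13 of the 16 also differed one way in all 5 mice (not Cdip1, Sdf4 and Tjp1).

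The smallest p of the 16 belonged to Gper1, a G protein-coupled oestrogen receptor. Gper1 had 132, 37, 65.7, 85.2 and 100.1 CPM contralaterally and 195, 115, 159, 116 and 276 CPM ipsilaterally. It was higher ipsilaterally in every mouse, by 1.08 ± 0.25 (SE) on the log2 scale (edgeR, unadjusted p = 0.00400, adjusted p = 1) and by 0.83 without a8_16 and a9_9. Cnp, an enzyme of myelin-forming oligodendrocytes, had 570.1, 306, 574, 449 and 293 CPM contralaterally and 709, 454, 729, 591 and 419 CPM ipsilaterally. Its difference was small but even from mouse to mouse, 0.43 ± 0.10 (SE), and 0.41 without a8_16 and a9_9. The myelin protein gene Mbp, another oligodendrocyte marker, differed by 0.02 ± 0.43 (SE) and was higher in 3 of 5 mice. Papss2, which makes the sulphate donor for matrix sulphation, had 139, 70.8, 105, 79.9 and 137 CPM contralaterally and 191, 235, 153, 117 and 193 CPM ipsilaterally. The gap in Papss2 was widest in a8_16, and the fitted difference was 0.75 ± 0.24 (SE), or 0.50 without a8_16 and a9_9.

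The remaining higher genes ranged from 0.43 ± 0.13 (SE) for Surf4, a cargo receptor of the endoplasmic reticulum, to 0.69 ± 0.20 (SE) for Taz (tafazzin, which remodels cardiolipin). Between them lay Sdf4, a calcium-binding protein of the Golgi (0.45 ± 0.14, SE), and Cdip1 (0.51 ± 0.16, SE). Without a8_16 and a9_9, Taz was at 0.43, Surf4 at 0.34 and Cdip1 at 0.28. Both Surf4 and Cdip1 then had an unadjusted p above 0.05 in edgeR's test. Rasd1, a Ras-like gene induced by glucocorticoids, was of another kind: it had 3.9, 0, 0, 0 and 0 CPM contralaterally and 5.94, 9.06, 34.9, 1.97 and 5.23 CPM ipsilaterally. No fold is given against libraries at 0. In TPM its mean over both sides was 6.28. Without a8_16 and a9_9 its unadjusted p was above 0.05 in edgeR's test.

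Among the 8 lower genes was Tjp1, the tight junction scaffold ZO-1. It had 54.1, 71.7, 43.6, 93.6 and 83.4 CPM contralaterally and 31.9, 46.5, 7.47, 44.6 and 37.4 CPM ipsilaterally. It was lower in every mouse, with a fitted difference of -1.22 ± 0.40 (SE), or -0.995 without a8_16 and a9_9. On log2(TPM + 1) with limma it was -0.31 and on log2(TPM + 0.1) -0.33, with an unadjusted p above 0.05 in both. Jam2, a junctional adhesion molecule, had 188, 236, 209, 243 and 228 CPM contralaterally and 146, 154, 97.5, 184 and 209 CPM ipsilaterally, a difference of -0.52 ± 0.18 (SE). Without a8_16 and a9_9 it was -0.30, with an unadjusted p above 0.05. Acta2, the smooth muscle actin of arterioles, had 177, 117, 149.96, 116 and 24.3 CPM contralaterally and 111, 101, 49, 86.8 and 10.2 CPM ipsilaterally. Its difference was -0.83 ± 0.28 (SE), and -0.78 without a8_16 and a9_9. The fitted value was below 0 for 9 of 10 mural cell and fibroblast markers (median -0.73, and -0.87 to -0.27 leaving out 1 mouse). It was below 0 for 6 of 8 endothelial markers (median -0.42, and -0.94 to -0.17 leaving out 1 mouse). Of all genes tested, 47.7% had a fitted value above 0. Other lists leaned the same way, with values below 0 for 10 of 12 neuronal, 7 of 8 ependymal and choroid plexus and 6 of 8 oligodendrocyte precursor markers. The count was 3 of 12 for astrocytes, 6 of 12 for microglia, 1 of 8 for oligodendrocytes and 0 of 5 for red blood cells. The part of vessel cells in the differences of Tjp1, Jam2 and Acta2 was not tested. The summed TPM of the vessel lists overlapped between sides, as given above.

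Apod, a lipocalin that carries small lipids, had 145, 553, 218, 95.9 and 188 CPM contralaterally and 143, 250.3, 171, 38.1 and 118 CPM ipsilaterally. It was highest in the contralateral library of a8_16 and nearly level in a8_15, and the fitted difference was -0.70 ± 0.23 (SE). Without a8_16 and a9_9 that difference was -0.67, with an unadjusted p above 0.05 in edgeR's test. Ggcx, the vitamin K-dependent carboxylase, had 23.6, 72.8, 89.5, 32.7 and 62.1 CPM contralaterally and 23.5, 10.4, 14, 3.6 and 32.5 CPM ipsilaterally. Its difference of -1.96 ± 0.67 (SE) was the largest of the 8 lower genes. Without a8_16 and a9_9 it was -1.32, with an unadjusted p above 0.05 in edgeR's test. Smarcc2, a subunit of the BAF chromatin remodelling complex (-0.73 ± 0.21, SE), Ly6e, a GPI-anchored surface protein (-0.44 ± 0.15, SE), and Leng8 (-0.53 ± 0.18, SE) made up the rest.

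**Figure D4:**
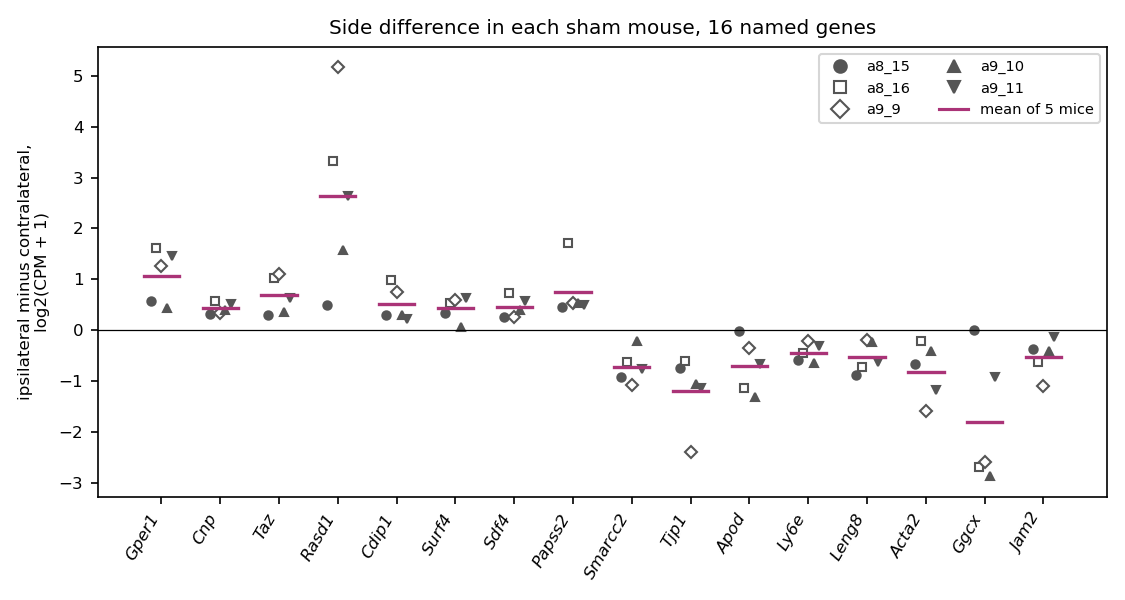
Ipsilateral minus contralateral difference in log2(CPM + 1) for each of the 5 sham mice (marker shape; open markers are a8_16 and a9_9) in the 16 named genes, with a line at the mean of the 5 mice. All points of the first 8 genes lie above 0 and all points of the last 8 below 0, which is how the genes were chosen; Rasd1 and Ggcx spread most.

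No gene of astrocyte function or state passed the test. Of the 222 tested members of the 14 lists of astrocyte function and state, 0 had an unadjusted p under 0.05 in edgeR's test, against 0.707% of all genes tested. In all 5 mice, 6 were higher and 7 lower ipsilaterally (5.86%), beside 5.23% of all genes tested. The median of a list ran from -0.11 for the pan-reactive genes to 0.40 for the A2 genes, and the median over all genes tested was -0.03. The glycolysis and glycogen genes had 16 of 20 fitted values above 0 with a median of 0.18. The lipid and lipoprotein genes had 14 of 18 (median 0.09) and the glutamate and GABA genes 9 of 12 (median 0.14). Fitted values were above 0 for 47.7% of all genes tested and for 141 of the 200 highest in TPM. The members that were higher in all 5 mice (picked after their values were seen) included the glutamine transporter Slc38a3 (0.25 ± 0.11, SE), the glycolytic enzyme Gpi1 (0.33 ± 0.16, SE) and the transcription factor Lhx2 (0.22 ± 0.12, SE). Those lower in all 5 included the glutamate receptor Grm5 (-2.42 ± 1.27, SE) and the proteoglycan Ncan (-0.23 ± 0.17, SE).

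The pan-reactive genes had 5 fitted values above and 5 below 0 among 10 tested, and 0 with an unadjusted p under 0.05. The A1 genes had 6 above and 5 below (median 0.31), and the A2 genes 5 and 4. The interferon-stimulated genes were split evenly, 10 above and 10 below (median -0.01). The medians of the remaining lists were 0.05 for potassium, water and gap junctions, 0.11 for secreted and matrix proteins, 0.06 for transcription factors, 0.19 for complement, 0.19 for glucocorticoid-responsive genes and metallothioneins, 0.18 for immediate early and heat shock genes and 0.18 for the neurogenic lineage. Most of these medians were not steady: leaving out 1 mouse changed the sign of 10 of the 14, as in the A1 genes (-0.16 to 0.24), the A2 genes (-0.61 to 0.36), the interferon-stimulated genes (-0.37 to 0.25) and the neurogenic lineage (-0.59 to 0.44). The median of the glycolysis and glycogen genes was above 0 under every setting run (0.11 to 0.22 leaving out 1 mouse).

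Among the 84 tested genes of the marker lists, 5 (5.95%) had an unadjusted p under 0.05, beside 0.707% of all genes tested: Cnp, Acta2, the endothelial antigen Ly6c1, and the haemoglobin genes Hba-a1 and Hbb-bs. Ly6c1 differed by -0.49 ± 0.20 (SE) and was lower in 4 of 5 mice. Hba-a1 had 569, 31.7, 988, 1634 and 1732 TPM contralaterally and 903, 397, 3226, 3093 and 1445 TPM ipsilaterally, and Hbb-bs had 339.7, 55.6, 504, 1109 and 1023 TPM contralaterally and 509, 227, 1367, 1909 and 980 TPM ipsilaterally. The haemoglobin genes were higher ipsilaterally in a8_15, a8_16, a9_9 and a9_10 and lower in a9_11, by 1.25 ± 0.50 (SE) for Hba-a1 and 0.87 ± 0.27 (SE) for Hbb-bs in the fit, both with an adjusted p of 1 in edgeR's test. Without a8_16 and a9_9 the values were 0.50 and 0.47. The list medians, with their range when 1 mouse was left out in parentheses, were 1.32 (0.78 to 1.70) for red blood cell genes, 1.12 (0.28 to 2.04) for oligodendrocytes, -0.38 (-0.49 to -0.21) for their precursors, -0.53 (-1.01 to 0.089) for neurons, 0.12 (-0.22 to 0.74) for microglia, 0.07 (-0.050 to 0.14) for astrocytes and -0.49 (-1.04 to 0.024) for ependyma and choroid plexus. The summed TPM of the oligodendrocyte markers had a median of 1047 contralaterally and 851 ipsilaterally, the opposite order to the fitted median. A single leukocyte marker could be tested (-0.96).

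To place the sham side difference beside that of injured mice without epilepsy, the difference between both was fitted as an interaction on the 34 libraries of the 17 mice with both sides (5 sham, 8 PTE- and 4 PTE+). In this fit of 34 libraries, of 15731 genes tested, 0 (0%) had an adjusted p under 0.05 in edgeR's test and 168 (1.07%) an unadjusted p under 0.05. In the same fit, 52 genes (0.331%) had an unadjusted p under 0.05 for the sham side and 315 (2%) for the PTE- side. The former rest on 5 mice and the latter on 8, and both shares lie below the 1 in 20 of chance. These counts therefore do not compare the size of the side differences. Apoe was fitted at 0.23 ± 0.13 (SE) ipsilateral minus contralateral in sham mice and -0.32 ± 0.11 in PTE- mice, a difference of -0.56 ± 0.17 (SE) on the log2 scale (edgeR, unadjusted p = 0.00424, adjusted p = 1). The direction of this difference was kept when each sham mouse was left out in turn. Of the PTE- mice, only a8_11 was left out, which moved the median difference over all genes from -0.05 to 0.21. Leaving out sham mouse a9_9 moved that median to -0.23. Vim was at -0.23 ± 0.44 in sham and 1.26 ± 0.36 in PTE- mice, a difference of 1.49 ± 0.57 (SE, unadjusted p = 0.0176, adjusted p = 1 in edgeR's test). For Gfap the difference was 0.50 ± 0.49 (SE) with an unadjusted p of 0.321 (adjusted p = 1, edgeR). Glul differed by -0.66 ± 0.29 (SE, unadjusted p = 0.0352, adjusted p = 1, edgeR). Whole lists shifted too. Their median side differences in sham and PTE- mice were 0.09 and -0.24 for lipid and lipoprotein genes, 0.15 and -0.28 for glutamate and GABA genes. They were 0.19 and -0.22 for glycolysis and glycogen. Other lists went the other way, as in neurons (-0.53 and 1.02) and ependyma and choroid plexus (-0.48 and 1.10). The part of such broad shifts in the differences of Apoe and Glul was not tested.

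Of the pan-reactive genes, Vim was the only 1 of the 13 tested with an unadjusted p under 0.05 for the difference. The red blood cell genes differed in the opposite direction: 4 of 5 had an unadjusted p under 0.05, beside 1.07% of all genes tested, with Hba-a1 at 1.25 in sham and -1.46 in PTE- mice (difference -2.72 ± 0.88, SE, unadjusted p = 0.00633, adjusted p = 1, edgeR). Without a8_16 and a9_9 the difference was -1.96 for Hba-a1, -0.52 for Apoe and 1.16 for Vim, and 78 genes had an unadjusted p under 0.05. The part of blood in the other differences was not tested.

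**Figure D5:**
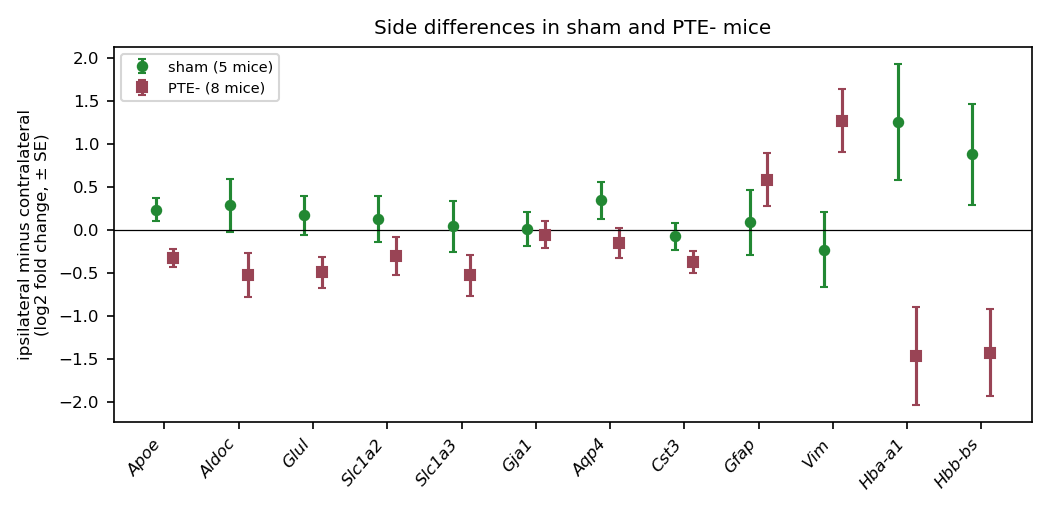
Ipsilateral minus contralateral difference (log2 fold change with its SE) in sham (green circles, 5 mice) and PTE- mice (red squares, 8 mice) for 12 genes, from 1 fit of 34 libraries. Apoe, Hba-a1 and Hbb-bs lie above 0 in sham and below 0 in PTE- mice, and Vim the reverse; none of these differences passed the adjusted threshold.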

How the data were processed

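Astrocytes were isolated on ACSA-2 beads and amplified cDNA was sequenced (SMART-Seq V4); no molecular identifiers are named, so limits for low counts cover counting error only. Per the labels and the study's methods, the authors trimmed reads with Trim Galore 0.6.4 and obtained expected counts with RSEM 1.2.28 and Bowtie2 2.4.1 on mm10. The expected counts were deposited unnormalized and as whole numbers, and the authors also deposited TPM from RSEM. The annotation release is not given in the sources used here; symbols and positions came from GENCODE M21 (GRCm38), promoter sequences from RefSeq (GRCm38.p6). RSEM divides reads shared by near-identical genes.

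Tests of the counts used edgeR 4.0.16 under R 4.3.3 (filterByExpr, TMM, quasi-likelihood F test, the mouse as block and the side as effect, Benjamini-Hochberg adjustment). SEs and 95% intervals came from that fit. Single genes were compared by exact sign-flip permutation over the 5 pairs. The pairing comes from the mouse names: the deviations of both libraries of a mouse from their side's mean correlated with a median of 0.07, against -0.05 between mice. DESeq2 1.42.0 and limma 3.58.1 served as alternatives. The study's methods name DESeq2 1.36.0 for its own comparisons. A run of the fit on simulated data is not reported here, and no result rests on it. With the mouse as block or pair, p-values are set against the spread of the side difference over the 5 sham mice. In the fit of 34 libraries it is the spread over all 17 mice. Nothing says how RNA was handled between mice.

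Genes named are the 25 highest in TPM, up to 8 per direction that met the criteria of the methods and moved one way in 5 mice, the 5 lowest and highest CVs among the 200 highest in TPM, 10 set astrocyte genes, and in each list the highest members, those with an unadjusted p under 0.05 and defining markers at 0; others are named as chosen after their values were seen, and some genes that the rule names are not reported here. The mice, lists and rules were chosen with earlier results of these data known. For the plots, matplotlib 3.10.9 (Python 3.11.15) was used.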

Additional observations from a re-analysis of the deposited data

Results flagged for a closer look

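Within each group of 5 libraries of one side, a library was noted where its gap to the nearest other exceeded Dixon's 95% limit (0.71 of the range). Of 142 groups of values examined, 17 held such a library, and chance gives about 1 in 20.

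Mouse a9_10 was far above the other mice in several sums of TPM. The A1 reactive genes summed to 1630.4 TPM contralaterally (others 436 to 735) and 2088 TPM ipsilaterally (others 425 to 830.2). The interferon-stimulated genes reached 2575 TPM ipsilaterally (others 604 to 770.1), the ependymal and choroid plexus markers 2701 TPM ipsilaterally (others 423 to 975) and the leukocyte markers 49.5 TPM contralaterally (others 0.98 to 11.8). Its ipsilateral Ntsr2 was low, at 2729 TPM (others 5444 to 6261). Whether the A1 and interferon levels come from astrocytes or from other cells in this mouse was not tested.

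In the contralateral library of a8_16, the library with few detected genes on that side, the secreted and matrix proteins summed to 76259.6 TPM (others 50708 to 54925), Cst3 stood at 41035 TPM (others 21522 to 26256), Sparcl1 at 5939 TPM (others 3523 to 4017) and Apod at 553 CPM (others 95.9 to 218). In this library 6.34% of the abundant genes had 3 or fewer counts, and in the ipsilateral library of a9_9 11.6%; the part of this loss in the values above was not tested.

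In the contralateral library of a9_11, the pan-reactive genes summed to 632 TPM (others 928 to 1035), mt-Co2 stood at 1355 TPM (others 4424 to 5225) and Fth1 at 1652 TPM (others 4026 to 4652), each the lowest. Rasd1 was at 3.9 CPM in the contralateral library of a8_15, where the other 4 were at 0, and at 34.9 CPM in the ipsilateral library of a9_9 (others 1.97 to 9.06).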

How the results depend on the processing

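The count of 0 genes at an adjusted p under 0.05 for the sham side was the same under every alternative run but DESeq2, which gave 16; leaving out each mouse in turn gave 0 to 0. Without the mouse as a replicate block (the pairing), edgeR also gave 0 genes, 83 at an unadjusted p under 0.05, and 69 by the criteria of the methods, 29 of them among the 81. By those criteria the count moved from 81 to 390 with DESeq2, 393 with limma voom, 242 on log2(TPM + 1), 159 on log2(TPM + 0.1), 27 in the fit of 34 libraries, 637 with the number of detected genes as covariate, 276 without a8_16 and a9_9, and 18 at 2-fold or more; leaving out each mouse gave 49 (without a9_11) to 108 (without a9_10). The median of all genes moved from -0.03 to -0.11 on log2(TPM + 1), -0.13 on log2(TPM + 0.1), -0.15 without a8_16 and 0.10 without a9_9, and the share of higher genes among those meeting the criteria from 80.2% to 46.9% without a9_9 and 20.6% with the covariate. For the interaction the count stayed at 0. Genes at an unadjusted p under 0.05 ran from 78 (without sham mice a8_16 and a9_9) to 238 (without PTE- mouse a8_11). Of the 25 most abundant genes, 16 stayed among the 25 by CPM, which is not scaled by length, and 24 or 25 otherwise. The 16 named genes were chosen for one direction in 5 mice, so keeping it when mice are left out is no sign of stability; without a8_16 and a9_9, 10 of 16 had an unadjusted p under 0.05. DESeq2 called Rasd1 and Cnp, and limma voom moved Ggcx to -0.999, Cdip1 to 0.32 and Jam2 to -0.33. The causes of these changes were not tested. Gfap changed sign, from 0.08, to -0.11 with limma voom, -0.040 on log2(TPM + 1), -0.040 on log2(TPM + 0.1), -0.12 without a8_16 and a9_9, -0.078 to 0.27 leaving out 1 mouse (sign changed without a8_16). Vim changed sign, from -0.23, to 0.0074 with limma voom, 0.11 without a8_16 and a9_9, 0.044 within prefix a9. Cst3 changed sign, from -0.08, to 0.047 with limma voom, -0.19 to 0.0091 leaving out 1 mouse (sign changed without a8_16). Gja1 changed sign, from 0.01, to -0.015 with RLE, -0.015 with DESeq2, -0.12 on log2(TPM + 1), -0.12 on log2(TPM + 0.1), -5.6e-05 with only TPM above 5, -0.0081 with detected genes as covariate, -0.034 without a8_16 and a9_9, -0.18 within prefix a8, -0.18 to 0.14 leaving out 1 mouse (sign changed without a8_15 or a9_11 or a9_9). Slc1a2 changed sign, from 0.13, to -0.0048 on log2(TPM + 1), -0.0048 on log2(TPM + 0.1), -0.021 without a8_16 and a9_9, -0.045 to 0.24 leaving out 1 mouse (sign changed without a9_9). Slc1a3 changed sign, from 0.04, to -0.046 with limma voom, -0.088 on log2(TPM + 1), -0.088 on log2(TPM + 0.1), -0.10 without a8_16 and a9_9, -0.13 within prefix a8, -0.19 to 0.14 leaving out 1 mouse (sign changed without a9_9). Glul changed sign, from 0.16, to -0.036 within prefix a9. Over all settings, the median changed sign in 13 of the 14 function and state lists and in 4 of the 10 marker lists; without 1 mouse it reached -0.16 for A1 (without a9_11) and -0.61 for A2 (without a9_10). Depth limits genes with few counts: 5761 of the 13711 genes tested had 3 or fewer counts in at least 1 library.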
